A study of Homo sapiens with 9 samples.

Results

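Complement is a cascade of blood and tissue proteins that tags cells and microbes for removal. C1r and C1s are the paired proteases that start the classical pathway, factor B is the protease of the alternative pathway, and both routes lead to the cleavage of C3, the central component. Host cells restrain the cascade with the membrane proteins CD46, CD55 and CD59 and with soluble inhibitors, among them clusterin (CLU) and C1 inhibitor (SERPING1). Intestinal epithelium is known to make several of these proteins itself.

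The 9 genes CD46, CD55, CD59, C1R, C1S, C3, CFB, CLU and SERPING1 were taken by symbol from the 60591 symbols of the deposited count table, and all 9 passed the filter on low counts. Their mRNA was measured in uCaco-2, undifferentiated proliferating cells of the human colon adenocarcinoma line Caco-2. The cells received for 24 h either 300 μM CoCl2, a cobalt salt, or 5 μM of the oxyquinoline derivative (OD) 4896-3212, both used as chemical activators of HIF, the hypoxia-inducible factor, or fresh medium alone (control). All 3 groups held 0.5% DMSO and had 3 biological replicates each from 1 cell line. A tumour line grown alone holds no immune or stromal cells, and only mRNA was measured.

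The libraries held 15998136 to 24209427 counts each. In CoCl2 libraries 21.7% to 22.3% of all counts fell on the 50 top genes, against 15.7% to 16.2% elsewhere, so levels are given as CPM, read counts brought to a common library size with the TMM factors of edgeR, which were 0.770 to 0.795 with CoCl2 and 1.11 to 1.15 elsewhere. Without these factors the median log2 fold change of all tested genes with CoCl2 was -0.55 in place of -0.049, and each CoCl2 value below would be lower by about this shift. As a check of the treatments, 7 of 8 hypoxia genes could be tested, and all 7 were upregulated with CoCl2 and with OD. Among all tested genes, 19.9% and 9.09% were. The study had already named NDRG1, PDK1, BNIP3, P4HA1, KDM3A and ANKRD37 as responding to both compounds in these cells. The outcome for these genes was thus known beforehand, and the check is not independent. Of 11 colon epithelial markers, 10 were tested and CDX1 had no count. With CoCl2, VIL1 fell from 613 ± 18.3 to 112 ± 6.28 CPM (SD, n = 3) and KRT20 was also downregulated, at -1.44 on the log2 scale, while the other 8 were higher at an adjusted p under 0.05 without a call. With OD none of the 10 was called, and 8 had an adjusted p under 0.05 by edgeR. Of 9 leukocyte markers, 4 had at most 3 counts in every library, among them PTPRC, and MS4A1 had none. Their summed CPM was 41.8 to 48.0 in control cells, 62.8 to 68.4 in CoCl2 cells and 54.9 to 59.1 in OD cells. LYZ had 35.9, 51.5 and 34.6 CPM on average in control, CoCl2 and OD cells, CSF1R rose with OD from 4.57 to 19.4 CPM, and CD14 fell with OD from 4.74 to 2.22 CPM. The summed CPM of 7 hepatocyte markers, which Caco-2 cells are known to share in part, was 1143 to 1262 in control cells, 1689 to 1803 in CoCl2 cells and 1346 to 1425 in OD cells. The sums of 7 fibroblast markers, 18.4 to 33.4 CPM, and of 5 endothelial markers, 2.41 to 3.54 CPM, were low in every library. The part of these shifts in the results was not tested, and in bulk RNA fewer cells of a kind and less RNA per cell cannot be told apart.

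A call of upregulated or downregulated needed a log2 fold change beyond 1 in either direction and a Benjamini-Hochberg adjusted p under 0.05, by edgeR's quasi-likelihood test over all 15944 tested symbols. With CoCl2, 4 of the 9 genes were upregulated, against 19.9% of all tested genes, and 1 was downregulated, against 23.4%. With OD none of the 9 was called, against 9.09% upregulated and 4.16% downregulated among all genes, and DESeq2 on the same libraries called none either. At an adjusted p under 0.05 without the fold threshold, 7 of the 9 genes differed with CoCl2, where 83.2% of all genes did, and 6 with OD, where 65.6% did. The same 6 had an unadjusted p under 0.05 with OD, all of them higher. The CoCl2 and control libraries did not overlap for 7 of the 9 genes and the OD and control libraries for 6, near the 83.4% and 68.0% of all genes.

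**Figure D1:**
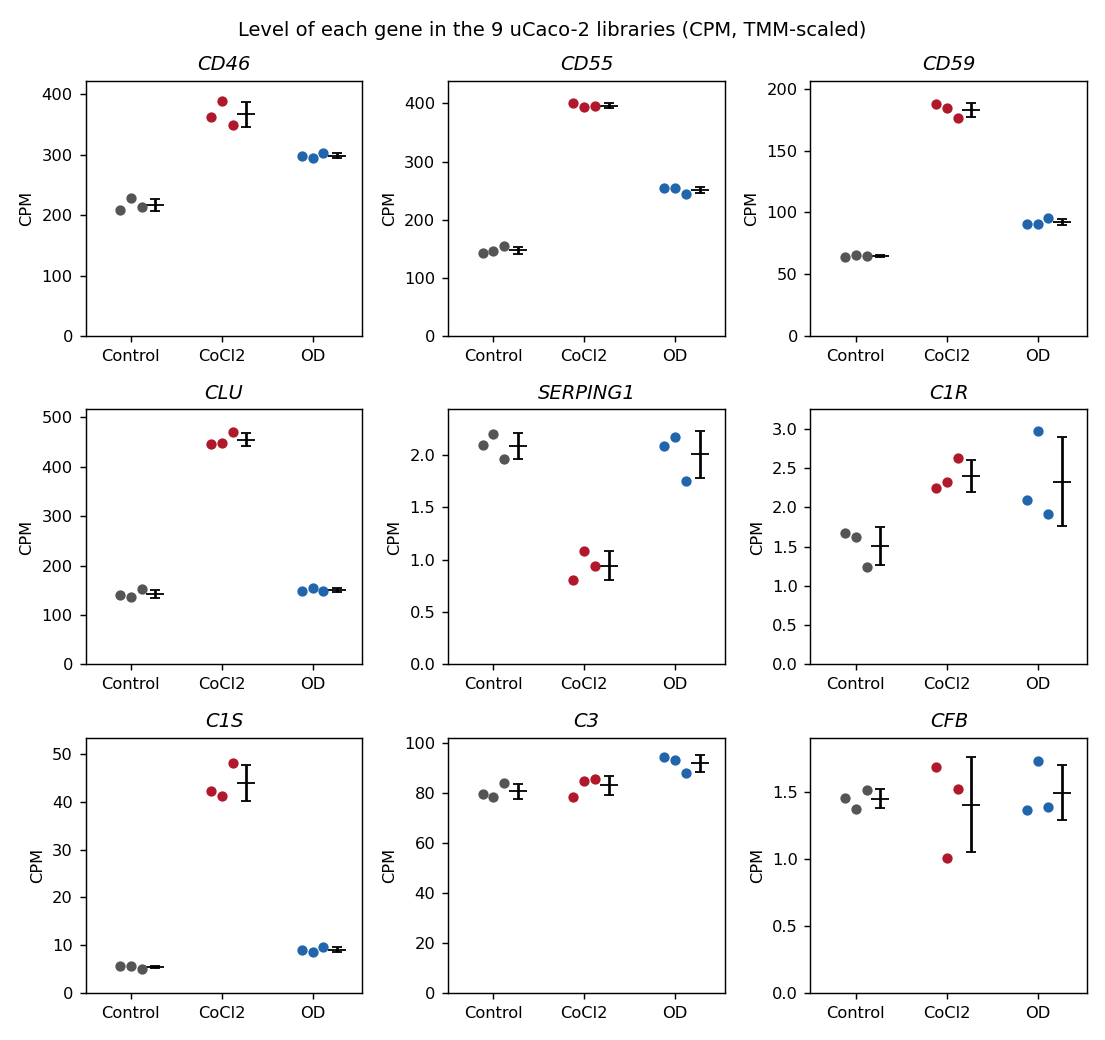
CPM (TMM-scaled counts, axes from 0) of each of the 9 genes in every library, with the mean and SD of the 3 replicates as a black bar beside the points. The 3 CoCl2 points lie far above the others for CD55, CD59, CLU and C1S and below them for SERPING1, while the groups of CFB overlap.

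Of the membrane regulators, CD55 and CD59 were upregulated with CoCl2 and CD46 was not called. With OD none of the 3 was called, although all had an adjusted p under 0.05. CD46 and CD55 lie on the plus strand of chromosome 1 of GRCh38, at chr1:207752037-207795513 and chr1:207321519-207386804, in a cluster of complement regulator genes. CD59 lies on the minus strand of chromosome 11, at chr11:33703010-33736479. The 250 bases before the most upstream RefSeq start (GRCh38.p14) are shown for these 3 genes as the membrane regulators among the 9. Capitals mark matches to the motifs searched on both strands, which were ACGTG or GCGTG (the core bound by HIF), GAANNTTC (a heat-shock core), TTCNNNGAA (GAS, an interferon and STAT motif) and ISRE, another interferon motif.
CD46, chr1:207751788-207752037, plus strand: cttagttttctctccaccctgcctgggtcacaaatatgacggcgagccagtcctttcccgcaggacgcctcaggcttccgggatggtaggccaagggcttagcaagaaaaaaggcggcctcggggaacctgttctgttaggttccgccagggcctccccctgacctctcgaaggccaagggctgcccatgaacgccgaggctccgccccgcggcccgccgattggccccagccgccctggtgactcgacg
CD55, chr1:207321428-207321677, plus strand: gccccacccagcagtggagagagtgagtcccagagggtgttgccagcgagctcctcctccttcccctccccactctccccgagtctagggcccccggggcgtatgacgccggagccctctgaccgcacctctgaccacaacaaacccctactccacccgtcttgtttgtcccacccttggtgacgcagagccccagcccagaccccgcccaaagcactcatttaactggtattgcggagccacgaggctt
CD59, chr11:33736480-33736729, minus strand: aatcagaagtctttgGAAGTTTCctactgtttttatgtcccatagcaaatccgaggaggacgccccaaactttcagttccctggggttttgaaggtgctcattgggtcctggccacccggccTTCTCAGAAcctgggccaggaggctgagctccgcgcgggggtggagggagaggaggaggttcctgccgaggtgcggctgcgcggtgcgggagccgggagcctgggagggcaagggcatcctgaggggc
In this stretch CD46 and CD55 held no match, and CD59 held a heat-shock core and a GAS match, the latter at -128 to -120. The HIF core stood at positions 28 to 32 of the first CD46 transcript and at -75 to -71 of a downstream start of CD59. Among 35116 RefSeq promoters of 300 bases (250 before to 50 after the start), 48.4% held the HIF core, 6.77% the heat-shock core, 7.66% GAS and 3.57% ISRE. The table matched 5 of the 9 genes, CD46, CD55, CD59, C1R and CFB, with 10 windows in all. CFB held a GAS at -92 to -84 and an ISRE at -140 to -131, and C1R a GAS at -86 to -78 of its downstream start.

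CD55, decay-accelerating factor, takes apart the enzymes that cleave C3 and is held in the membrane by a glycosylphosphatidylinositol (GPI) anchor. Its level was 142, 145 and 154 CPM in control cells, 401, 393 and 395 in CoCl2 cells and 255, 254 and 245 in OD cells. The 3 groups were fully separated, in the order CoCl2, OD, control. By edgeR's quasi-likelihood test, CoCl2 gave a log2 fold change of 1.43 (standard error 0.0415, adjusted p = 3.09e-40) and OD one of 0.77 (standard error 0.0414, adjusted p = 2.33e-25), so it was called upregulated with CoCl2 alone. The difference between the treatments was itself 0.66 on the log2 scale (adjusted p = 2.13e-23). Scaled by library size alone, it differed from control by 0.92 under CoCl2, short of the fold threshold.

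CD59, which blocks the membrane attack complex and is also GPI-anchored, showed the same order. Its level was 64.3, 65.4 and 64.6 CPM in control cells, 188, 184 and 177 in CoCl2 cells and 90.7, 90.5 and 95.4 in OD cells. The control libraries spread by an SD of only 0.595 CPM, and no groups overlapped. Against control, CD59 moved by 1.495 on the log2 scale in CoCl2 cells (standard error 0.0468, adjusted p = 1.80e-38) and by 0.51 in OD cells (standard error 0.0477, adjusted p = 1.17e-14), and by 0.99 for CoCl2 against OD (standard error 0.0449, adjusted p = 9.62e-30), the last just under the threshold of 1. CoCl2 against control fell to 0.99 with library size alone, while CoCl2 against OD passed the threshold with RLE factors at 1.03, without CoCl2 replicate 3 at 1.01 and without OD replicate 3 at 1.003. Of its exonic bases, 5.96% are shared with another annotated gene on the same strand.

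CD46, membrane cofactor protein, helps factor I to cleave C3b and spans the membrane without a GPI anchor. It had 208, 228 and 214 CPM in control cells, 362, 389 and 348 in CoCl2 cells and 297, 294 and 302 in OD cells. All 3 groups were separated, but the distances were smaller than for CD55 and CD59. Its log2 fold change was 0.76 with CoCl2 (adjusted p = 3.57e-25) and 0.46 with OD (adjusted p = 5.17e-15), both below the fold threshold. CoCl2 exceeded OD by 0.30 on the log2 scale (adjusted p = 2.64e-09), a direction that turned to -0.25 (adjusted p = 5.81e-07) with library size alone. An antisense gene, MIR29B2CHG, overlaps 5.14% of its exonic bases.

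**Figure D2:**
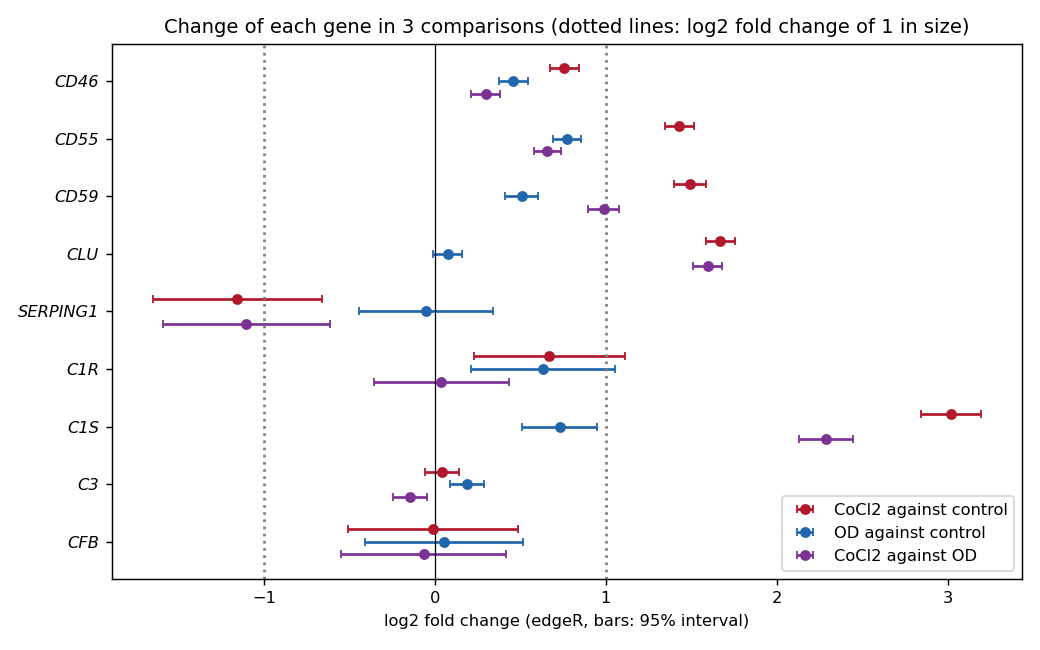
Log2 fold changes of the 9 genes (x axis) in 3 comparisons, from edgeR over all 9 libraries, with 95% intervals as bars and dotted lines at a size of 1. C1S stands farthest to the right with CoCl2 at 3.02, SERPING1 is at -1.15, and every OD point lies between the dotted lines.

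Among the soluble regulators, CLU and SERPING1 moved in opposite directions with CoCl2, and neither was called with OD. CLU encodes clusterin, a secreted chaperone that also binds the terminal complement complex, and is a minus-strand gene of chromosome 8. Its level was 140, 137 and 152 CPM in control cells, 446, 448 and 470 in CoCl2 cells and 149, 155 and 148 in OD cells. The OD and control libraries overlapped, and the CoCl2 libraries stood apart from both. CLU was higher in CoCl2 cells by 1.67 on the log2 scale (standard error 0.0427, adjusted p = 3.38e-43) than in control and by 1.595 than in OD cells (adjusted p = 2.73e-42). In OD cells it differed from control by 0.074, with a 95% interval of -0.012 to 0.16 (adjusted p = 0.127). The call with CoCl2 held with library size alone, at 1.16.

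SERPING1 encodes C1 inhibitor, the serpin that inactivates C1r and C1s, and lies on the plus strand at chr11:57597387-57619171. It was rare, with 39, 45 and 35 counts in the control libraries, 13, 14 and 18 in CoCl2 cells and 46, 49 and 33 in OD cells. Scaled to CPM, control libraries held 1.96 to 2.21, CoCl2 libraries 0.809 to 1.08 and OD libraries 1.76 to 2.18. The CoCl2 libraries lay below all others. CoCl2 gave a log2 fold change of -1.15 against control (standard error 0.247, adjusted p = 2.60e-05) and of -1.10 against OD (adjusted p = 4.64e-05), and both 95% intervals, -1.65 to -0.66 and -1.59 to -0.61, include the threshold. A test against a log2 fold change of 1 in size (glmTreat) did not call SERPING1 (adjusted p = 0.268 for CoCl2 against control and 0.37 against OD). OD cells differed from control by -0.052 on the log2 scale, with an interval of -0.44 to 0.34.

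C1R and C1S encode the 2 proteases of the C1 complex and lie near each other on chromosome 12, C1R at chr12:7080214-7092540 on the minus strand and C1S at chr12:6988259-7071032 on the plus strand, 9182 bases apart. C1S made the largest move of the 9 genes. It had 105, 113 and 91 counts in the control libraries, 680, 533 and 919 in CoCl2 cells and 196, 195 and 180 in OD cells. In CPM these were 5.65, 5.54 and 5.10 in control cells, 42.3, 41.2 and 48.2 in CoCl2 cells and 8.90, 8.66 and 9.58 in OD cells, without overlap between any groups. CoCl2 raised C1S 8.10-fold, a log2 fold change of 3.02 (standard error 0.0884, adjusted p = 5.00e-40), and OD gave 0.73 (standard error 0.1103, adjusted p = 3.82e-08). CoCl2 against OD gave 2.29 (adjusted p = 3.90e-36). The call with CoCl2 was kept under every alternative run, with log2 fold changes from 2.51 to 3.07.

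C1R did not follow its partner in size. It had 31, 33 and 22 counts in the control libraries, 36, 30 and 50 in CoCl2 cells and 46, 67 and 36 in OD cells. The control libraries, at 1.23 to 1.67 CPM, lay below the CoCl2 libraries at 2.24 to 2.62 and the OD libraries at 1.92 to 2.97, and the latter groups overlapped. It differed from control by 0.67 on the log2 scale in CoCl2 cells (standard error 0.221, adjusted p = 0.00474) and by 0.63 in OD cells (standard error 0.210, adjusted p = 0.00702). With library size alone the CoCl2 value was 0.17 (adjusted p = 0.486), so that difference was lost. The treatments differed by 0.038, with an interval of -0.36 to 0.43. C1RL, the neighbouring gene for a C1r-like protease, shares 11.6% of the exonic bases of C1R on the same strand, so the split of reads there is uncertain.

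C3, the component on which all pathways converge, lies on the minus strand at chr19:6677704-6730562 and changed little. It had 79.6, 78.3 and 84.1 CPM in control cells, 78.6, 84.9 and 85.7 in CoCl2 cells and 94.5, 93.3 and 88.0 in OD cells. The control and CoCl2 libraries overlapped, and the OD libraries were above both. Its log2 fold change was 0.043 with CoCl2 (interval -0.059 to 0.14, adjusted p = 0.433) and 0.19 with OD (interval 0.091 to 0.29, adjusted p = 0.000586). With CoCl2 its direction depended on the scaling, from -0.46 with library size alone (adjusted p = 3.10e-11) to 0.093 with RLE factors. A noncoding gene without a symbol on the same strand shares 11.7% of the exonic bases of C3. The split of reads there is uncertain, also for the ratios over C3 below.

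CFB, the gene of factor B, lies on the plus strand at chr6:31945650-31952086 and stayed near the limit of what these depths resolve. Its libraries held 27, 28 and 27 counts in control cells, 27, 13 and 29 in CoCl2 cells and 30, 39 and 26 in OD cells, and in CPM all groups overlapped. CFB had a log2 fold change of -0.012 with CoCl2 (interval -0.51 to 0.48) and 0.054 with OD (interval -0.41 to 0.52), and neither direction held over the alternatives. A protein-coding gene without a symbol on the same strand covers 42.3% of its exonic bases, and how the counting treated such reads is not given in the sources used here.

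Between the treatments, 2 of the 9 genes, C1S and CLU, were called higher with CoCl2 than with OD, against 17.5% of all tested genes, and SERPING1 was called lower, against 23.8%. At an adjusted p under 0.05 alone 7 differed, 5 higher and 2 lower, against 83.5% of all genes, and the libraries did not overlap for 7, against 83.8%. C1R and CFB were the genes without a difference at this threshold.

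Since the scaling of the CoCl2 libraries moves every CPM, ratios of counts between 2 genes of the same library, which do not depend on it, were taken after the values had been seen. C1S over SERPING1, the protease over its inhibitor, was 2.69, 2.51 and 2.6 in control cells, 52.3, 38.1 and 51.1 in CoCl2 cells and 4.26, 3.98 and 5.45 in OD cells. It was thus 18.0-fold higher with CoCl2 and 1.74-fold higher with OD than in control cells, from the mean log2 ratios. C1S over C1R was 3.39, 3.42 and 4.14 in control cells, 18.9, 17.8 and 18.4 in CoCl2 cells and 4.26, 2.91 and 5.00 in OD cells, where it overlapped control. CD55 over C3 averaged 1.82 ± 0.0369 (SD, n = 3) in control cells, 4.78 ± 0.277 in CoCl2 cells and 2.73 ± 0.0421 in OD cells. CD59 over C3 averaged 0.804 ± 0.0341, 2.21 ± 0.167 and 1.01 ± 0.0690 in the same order. CLU over C3 was higher with CoCl2 and lower with OD than in control cells, at 1.77 ± 0.0304, 5.48 ± 0.199 and 1.64 ± 0.0540. With OD the log2 fold change of CLU itself was 0.074 and that of C3 0.19, so CLU alone was not lower. CD46 over C3 averaged 2.69 ± 0.196, 4.42 ± 0.306 and 3.25 ± 0.166.

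CLU over CD55 separated the treatments by direction, at 0.988, 0.941 and 0.987 in control cells, 1.11, 1.14 and 1.19 in CoCl2 cells and 0.584, 0.609 and 0.604 in OD cells. The log2 fold change with OD was 0.77 for CD55 and 0.074 for CLU. Of 7 such ratios, the groups overlapped only for C1S over C1R with OD. An exact two-sided permutation test of 3 libraries against 3 cannot give a p below 0.1, the value that every other comparison of a ratio reached.

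**Figure D3:**
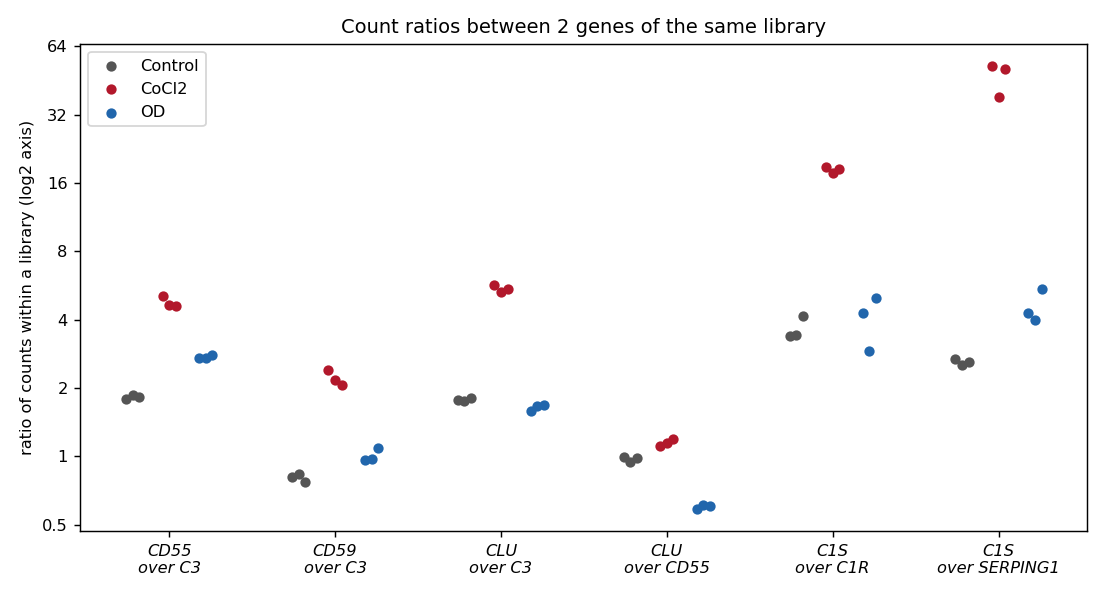
Ratio of the counts of 2 genes within each of the 9 libraries (log2 axis), with 3 points per group for 6 gene pairs. C1S over SERPING1 lies between 38.1 and 52.3 with CoCl2 and at 5.45 or below in all other libraries, and CLU over CD55 is lowest with OD.

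Levels of different genes were compared only as CPM per kilobase of merged exons (GENCODE release 44). In control cells the order was CLU at 22.8 ± 1.26 (SD, n = 3), CD55 at 14.3 ± 0.605, CD46 at 14.0 ± 0.668, C3 at 6.97 ± 0.266, CD59 at 6.14 ± 0.0564 and C1S at 0.655 ± 0.0347, followed by SERPING1, CFB and C1R between 0.289 and 0.260. CD55 and CD46 did not differ beyond their spread, nor did the last 3 genes in a way that this scale can order. The place of CFB depends on how reads of its shared bases were counted, which is not known. With CoCl2 the order was CLU at 72.3, CD55 at 38.7, CD46 at 23.6, CD59 at 17.3, C3 at 7.17, C1S at 5.29, C1R at 0.413, CFB at 0.264 and SERPING1 at 0.131. CD59 thus stood above C3 and SERPING1 last. With OD, CD55 at 24.5 ± 0.555 and CLU at 23.9 ± 0.599 led within their spread.

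The genes on either side of these loci did not share their direction throughout. Next to CLU, EPHX2 and SCARA3 were downregulated with CoCl2, with log2 fold changes of -2.70 and -2.47. C1RL, beside C1R, had -2.55 in CoCl2 cells and 0.20 in OD cells, and LPCAT3, which overlaps C1S, had -0.71 and -0.10. FBXO3, beside CD59, rose with CoCl2 by 1.33 and had 0.025 with OD. UBE2L6, beside SERPING1, had -1.88 with CoCl2, and CR2, after CD55, had -1.60.

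For each gene called in at least 1 comparison, the most similar of 13428 genes (mean CPM 1 or more) were found by the root mean square difference of log2 CPM, centred on each gene's own mean over the 9 libraries. KLF10, RHPN2 and ASAP2 were closest to CD55, at 0.042 to 0.048. ARF4, ELL2 and PPP1R15B were closest to CD59, at 0.045 to 0.056. MED10, ATP6V0E1 and PRDM4 were closest to CLU, at 0.049 to 0.058. CDKN2AIP, ZNF222 and SQSTM1 were closest to C1S, at 0.11 to 0.13, with log2 fold changes of 2.98, 2.88 and 3.15 with CoCl2. ZDHHC4, CNIH4 and PBX3 were closest to SERPING1, at 0.068 to 0.098. SERPING1 held only 13 to 49 counts per library, so its closest genes are uncertain.

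Outside these 9 genes, 51 further complement genes were listed, and 15 passed the filter. Of the remaining 36, 27 had at most 3 counts in every library, among them CFI, C1QA and CR1. With CoCl2 C9 was upregulated and C1RL, SUSD4, CR2 and MBL2 were downregulated, CR2 and MBL2 on at most 20 counts in any library. C9 had at most 1 count in each control and OD library and passed the filter only through the CoCl2 libraries. Its calls against both groups thus follow from how it came to be tested. These were 1 of 15 higher, where 19.9% of all tested genes were, and 4 of 15 lower, where 23.4% were. The 15 had a median log2 fold change of -0.21 against -0.049 for all tested genes. With OD none of the 15 was called by edgeR, and their median was 0.15 against -0.010. DESeq2 on 9 libraries was run without this filter and called 1 of the 51 listed genes with OD, not necessarily 1 of the 15. At an adjusted p under 0.05 alone 8 of the 15 differed, a smaller share than the 65.6% of all genes, and the same number had an unadjusted p under 0.05. Between the treatments C9, with the same limit, was higher with CoCl2, 1 of 15 where 17.5% of all genes were. C1RL, MBL2 and CR2 were lower, 3 of 15 where 23.8% were.

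By role, 4 of 13 soluble regulators were tested and none was called. VTN, vitronectin, which blocks the terminal complex, had 549 ± 7.92 CPM (SD, n = 3) in control cells, with a log2 fold change of 0.056 in CoCl2 cells and 0.21 in OD cells (adjusted p = 2.73e-06). C4BPB, a chain of the C4b-binding protein, had 0.068 and 0.12, and C4BPA, its other chain, -0.21 and -0.38. Of the proteases, C1RL had 236, 255 and 228 counts in control cells, 37, 26 and 41 in CoCl2 cells and 346, 341 and 236 in OD cells, a log2 fold change of -2.55 with CoCl2 (adjusted p = 4.24e-26). It thus moved against C1S. C2 and MASP2, the proteases of the classical and lectin routes, had 0.14 and 0.70 with CoCl2 and were not called.

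Of the terminal components C9, the pore-forming protein, had 1, 1 and 0 counts in control cells, 21, 14 and 22 in CoCl2 cells and 1, 0 and 0 in OD cells. Its mean CPM with CoCl2 was 7.43-fold above that of 3 counts per control library. By edgeR, C5 had log2 fold changes of -0.25 with CoCl2 (interval -0.51 to 0.0027, adjusted p = 0.0624) and -0.11 with OD (interval -0.34 to 0.13, adjusted p = 0.431). CFP, properdin, did not pass the filter, but had 0 counts in each control library, 17, 8 and 19 in CoCl2 cells and 3, 1 and 1 in OD cells. The mean CPM of CFP with CoCl2 was 5.61-fold above the same limit for control cells. Among membrane proteins, SUSD4, an inhibitor of complement activation, had 15.7 ± 1.16 CPM in control cells, 4.80 ± 0.609 in CoCl2 cells and 9.41 ± 1.77 in OD cells, and C1QBP, which binds C1q, had log2 fold changes of -0.56 and -0.91.

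CD55 and CD59 need a GPI anchor, and among the listed genes of its synthesis, transfer and later processing more fell than rose with CoCl2. Of 31 listed genes 30 were tested, 15 were downregulated with CoCl2, where 23.4% of all genes were, and 2 upregulated, where 19.9% were. Their median log2 fold change was -1.01 against -0.049 for all tested genes. With library size alone it was -1.52 against -0.55, and 23 were called lower and 1 higher, where 5839 and 1833 of all 15944 genes were. PIGQ went from 17.2 ± 1.19 CPM (SD, n = 3) to 2.46 ± 0.372 (log2 fold change -2.80, adjusted p = 2.53e-30), PIGM from 13.04 ± 0.718 to 2.95 ± 0.630 and PGAP2 had -1.94. PIGA and PIGH were the 2 upregulated genes. PIGA rose from 14.1 ± 1.05 to 50.4 ± 2.41 CPM (log2 fold change 1.83, adjusted p = 6.99e-33), and PIGH had 1.09. With OD only PIGW, at -1.38, and PIGZ, at 1.08, were called. These were 1 of 30 lower, where 4.16% of all genes were, and 1 of 30 higher, where 9.09% were. The median was -0.079 against -0.010 for all tested genes. Between the treatments 13 of 30 were called lower with CoCl2, where 23.8% of all genes were, and 1 higher, where 17.5% were.

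Cytokine receptors and the factors that act below them, which are known to control complement genes, were listed as 21 genes and all were tested. With CoCl2 IL6R, SOCS3, CEBPB and RELA were upregulated and CEBPD downregulated, and with OD IL6R and SOCS3 were upregulated. The 4 of 21 higher with CoCl2 and 2 of 21 with OD were near the 19.9% and 9.09% of all genes, and the 1 lower with CoCl2 was below the 23.4%. With library size alone, 2 were called upregulated and 4 downregulated with CoCl2, where 1833 and 5839 of all 15944 genes were. IL6R, the interleukin-6 receptor, had 8.72, 8.97 and 9.42 CPM in control cells, 43.3, 41.7 and 46.3 in CoCl2 cells and 38.6, 42.1 and 38.4 in OD cells. STAT3 had log2 fold changes of 0.93 and 0.29, and IRF1 0.066 and 0.98. CEBPD and IFNAR2 were called lower under CoCl2 than under OD, 2 of 21 where 23.8% of all genes were. The median of the list was 0.36 for CoCl2 and 0.41 for OD.

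**Figure D4:**
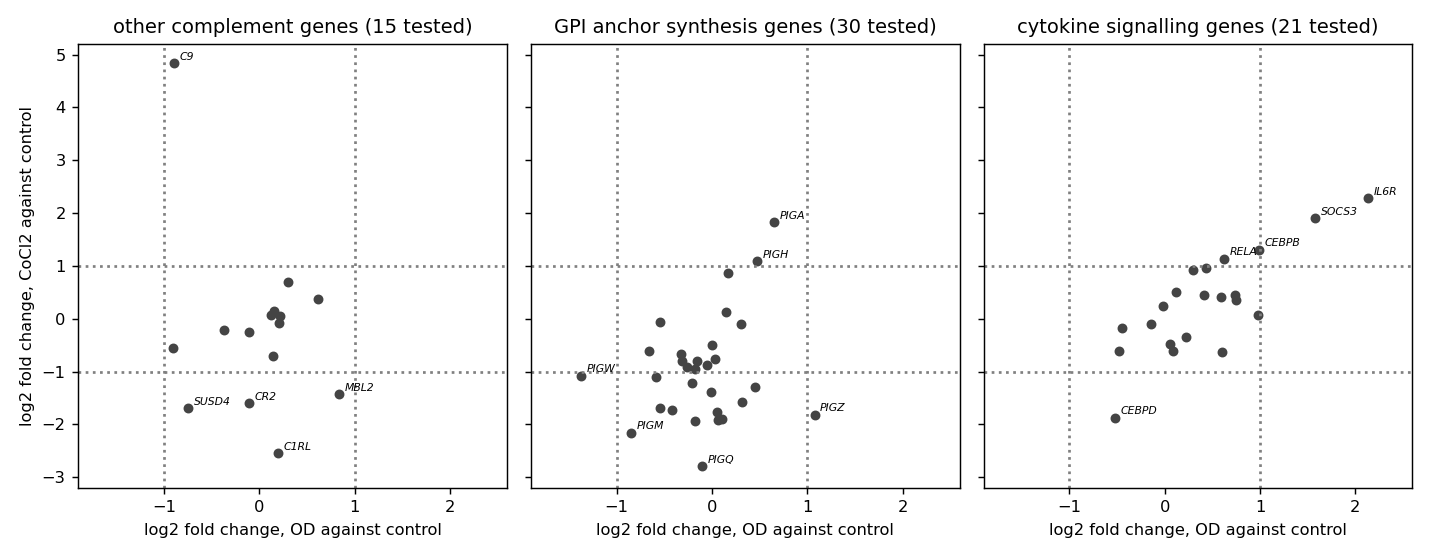
Log2 fold change with OD (x axis) against that with CoCl2 (y axis) for the tested genes of 3 lists, 1 point per gene, with dotted lines at a size of 1. Both axes share the control libraries, C9 rests on at most 1 count in the control and OD libraries, and in the GPI panel most points lie below 0 on the y axis while PIGA and PIGH lie above 1.

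**Figure D5:**
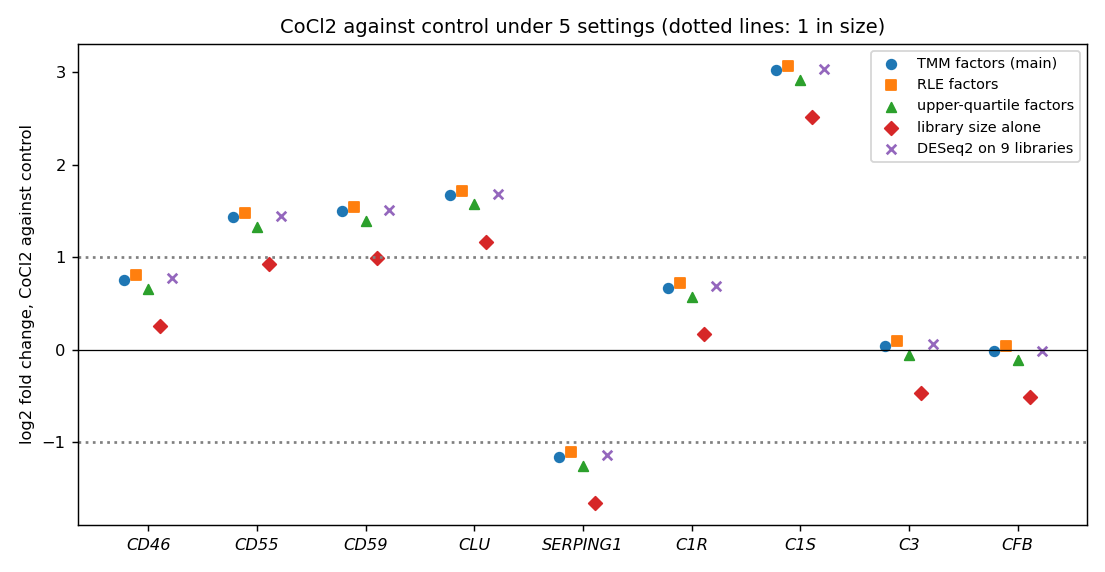
Log2 fold change with CoCl2 (y axis) of the 9 genes under TMM, RLE and upper-quartile factors, library size alone and DESeq2 on 9 libraries, with dotted lines at a size of 1. Library size alone lowers all 9 values by about 0.5, which takes CD55 and CD59 under 1 and C3 to -0.46, while C1S, CLU and SERPING1 stay beyond 1 in size.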

How the data were processed

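Poly(A) mRNA of 9 uCaco-2 cultures was sequenced with single-end reads from stranded libraries. The deposited counts are whole reads per gene symbol without normalization: per the labels and the study's methods, the authors used FastQC 0.11.9, cutadapt 2.10 and STAR 2.7.5b on GRCh38.p13 with GENCODE genes. The counting tool, its strand setting and its treatment of shared reads are not given in the sources used here. All 9 columns carry sample titles and 0 were left unused.

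From the counts, edgeR 4.0.16 in R 4.3.3 kept 15944 symbols by its expression filter, computed TMM factors and fitted a robust quasi-likelihood model over 9 libraries with 1 mean per group, with Benjamini-Hochberg adjustment over all symbols. Standard errors came from the fold change and its F value. Replicate libraries of a group differed beyond sampling noise (chi-square per degree of freedom 1.82 to 3.32) and were kept apart. The folds given for C9 and CFP divide the mean CPM of the CoCl2 libraries by that of 3 counts per control library. This limit allows for counting error in the control libraries only, not in the CoCl2 counts or between replicates. The exact permutation test was run on log2 ratios, and the similarity search on log2(CPM + 0.1).

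Coordinates, exon lengths and overlaps are from GENCODE release 44 on GRCh38, and promoters from RefSeq, GRCh38.p14. The study counted reads on an earlier GENCODE release. The gene models behind the lengths and shared bases can thus differ from those used for counting. The members and lists were chosen with earlier results of these data known. Named genes are all 9 members, list genes called or standing for a role, neighbours and the 3 most similar genes. CFP, STAT3, IRF1, CFI, C1QA, CR1, PTPRC, MS4A1, LYZ, CSF1R, CD14, VIL1, KRT20 and CDX1 were named after their values were seen. The steps were tested on simulated data. DESeq2 1.42.0, other scalings, filters, thresholds, 6-library fits, thinned counts, a replicate block and each replicate left out were the alternatives. The ratios were added after seeing the data.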

Additional observations from a re-analysis of the deposited data

How the results depend on the processing

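C1R, CFB and SERPING1, with at most 67 counts in a library, had a standard error between 0.196 and 0.248 per log2 fold change, and the 4 genes CD46, CD55, C3 and CLU between 0.0400 and 0.0507. The causes of the shifts below were not tested. Calls among the 9 genes with CoCl2 went from 5 to 3 with library size alone. Among all 15944 genes, 1833 were then called higher and 5839 lower, in place of 3167 and 3724. With an adjusted p as the only criterion, calls for OD were 6 of the 9 genes, 8 of the other complement genes, 19 GPI anchor genes, 18 cytokine signalling genes and 10466 of all genes. For CoCl2 the same criterion called 28 GPI, 17 cytokine and 13260 of all genes, and for CoCl2 against OD 7 of the 9 genes, 9 other complement, 28 GPI, 15 cytokine and 13311 of all genes. With at least 10 counts in every library, 12583 genes were tested in place of 15944. List genes with fewer counts in any library, such as MBL2, were then left out. Calls for CoCl2 were 2 other complement genes, where 2126 of all genes were called higher and 2591 lower. For OD they were 1134 of all genes, 1 GPI and 4 cytokine genes. For CoCl2 against OD they were 2 other complement and 1 cytokine gene, where 1827 of all genes were called higher and 2567 lower. glmTreat called 3 other complement genes for CoCl2, where 2568 of all 15944 genes were called higher and 2822 lower. For OD it called 965 of all genes and 1 GPI gene. For CoCl2 against OD it called 1 cytokine gene, where 2202 of all genes were called higher and 2868 lower. Other complement calls for CoCl2 were 3 in the 6-library fit, which tested 14997 genes and called 2980 higher and 3494 lower. They were also 3 in thinned counts (15332 tested, 2971 and 3581). For OD they were 2 without the count filter (36105 tested, 1778 and 872). They were 1 with DESeq2 on 9 libraries (20705 tested, 1476 and 610) or 6 (19567 tested, 1439 and 612). For CoCl2 against OD they were 7 without the filter (4042 and 4600) and 2 in thinned counts (2595 and 3663). DESeq2 and the runs without the filter started from all listed genes with a count. Cytokine calls for OD were 4 with upper-quartile factors and 4 with library size alone, and 6 for CoCl2 against OD with library size alone. Among all 15944 genes, 1527, 1552 and 1351 were called higher and 595, 582 and 6026 lower, in the same order.

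Directions turned for CFB, C3, C1R, CD46 and SERPING1. For CoCl2, CFB had a log2 fold change of 0.038 with RLE factors, and C3 had -0.057 with upper-quartile factors, -0.46 with library size alone and -0.022 without the filter. For OD, CFB had -0.00073 in thinned counts. For CoCl2 against OD, CD46 had -0.25 with library size alone, and C1R had -0.094 with upper-quartile factors, -0.51 with library size alone, -0.027 without the filter, -0.016 with at least 10 counts in every library and -0.12 in thinned counts. With each replicate left out, CFB ranged from -0.14 to 0.15 for CoCl2, from -0.070 to 0.12 for OD and from -0.19 to 0.093 for CoCl2 against OD, SERPING1 from -0.11 to 0.030 for OD and C1R from -0.081 to 0.25 for CoCl2 against OD. Calls then ranged from 0 to 1 for other complement genes with OD (1 without CoCl2 replicate 2 or without any one OD replicate), from 1 to 2 for GPI genes with OD and from 2 to 4 for cytokine genes with OD, where the lowest GPI count and the highest cytokine count came without Control replicate 3. Of all genes, 2150 to 2274 were called with OD when a replicate was left out. Of 324 other values for the 9 genes, 296 kept direction and call. Of 147 values of the count ratios, 146 moved by less than 1 SD.

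Replicates that share a number did not deviate together (correlation -0.029 to 0.094 over 9 pairs, against -0.10 to 0.090 over 18 pairs with different numbers). With the replicate number as a block, 5, 0 and 3 of the 9 genes were called for CoCl2, OD and CoCl2 against OD, and 6901, 2115 and 6568 of all genes, and no list changed its count of calls.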
